A study of Mus musculus with 6 samples.

Results

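The transcripts of 10 glycolytic genes were followed in mouse testis, 5 isozymes made mainly or solely in germ cells (Gapdhs, Pgk2, Ldhc, Eno4 and Aldoart1) and 5 paralogues made in body cells in general (Gapdh, Pgk1, Ldha, Ldhb and Eno1). They were found in the deposited table by gene name, each once, so that 10 of 55711 entries were followed. Testis RNA of 6 C57BL6 libraries was sequenced, 3 labelled Tmc7 knockout and 3 labelled heterozygote, which served as controls. The controls thus carried 1 copy of the altered Tmc7 allele, and the labels give neither the kind of allele nor the age of the mice. Tmc7 encodes a transmembrane channel-like protein, and the series asks which transcripts differ in testes without it. All values are FPKM, fragments per kilobase of gene model divided by a total for each library. Levels, ranks, shares and ratios between genes therefore depend on the length of the gene model. For some genes it far exceeds the principal GENCODE transcript, which can understate their level. It was 5379 against 2027 bases for Eno1, 4133 against 1420 for Gapdh, 3310 against 1766 for Ldha and 2911 against 1511 for Aldoa. Model and transcript were closer in length for the other members, from 1626 and 1626 for Pgk2 to 2244 and 1825 for Pgk1.

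Glycolysis turns glucose into pyruvate, and lactate dehydrogenase turns pyruvate into lactate. Sperm use it to power the tail, along whose principal piece several of its enzymes are bound to the fibrous sheath. Several steps are run in spermatogenic cells by enzymes of their own, and the X chromosome, which carries Pgk1, is silenced in meiosis. Pgk2 and Aldoart1 are retrogenes, copies made through an RNA intermediate, and their principal GENCODE transcripts had 1 exon each, against 11 exons for Pgk1 and 9 for Aldoa. In bulk testis RNA, fewer cells of a type and less RNA per cell cannot be told apart.

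Tmc7 itself was at 43.8, 41.9 and 35.1 FPKM in libraries labelled knockout and at 39.1, 37.7 and 37.2 FPKM in controls, so its transcript level does not check the labels. The table held between 17397662 and 19343479 reads per library labelled knockout and between 17059486 and 18629233 reads per control. Libraries 2 and 3 labelled knockout stood apart in the share of small structural RNA models, at 0.335% and 0.281%, against 0.0949% in library 1 labelled knockout and 0.0997% to 0.105% in controls. Gapdhs, Pgk2 and Aldoart1 were low in the same 2 libraries, but Gapdhs and Aldoart1 were low too in control library 3, whose share was 0.0997%, and a connection was not tested.

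In GRCm38, the table places Ldhc (ENSMUSG00000030851) on chromosome 7 from 46861203 to 46878142, Gapdhs (ENSMUSG00000061099) on chromosome 7 from 30729775 to 30743681, and Pgk2 (ENSMUSG00000031233) on chromosome 17 from 40207015 to 40208640. Aldoart1 (ENSMUSG00000059343) lies on chromosome 4 from 72850583 to 72852634 and Eno4 (ENSMUSG00000048029) on chromosome 19 from 58943425 to 58971421. Of the paralogues, Ldha (ENSMUSG00000063229) lies on chromosome 7 from 46841475 to 46855627, Ldhb (ENSMUSG00000030246) on chromosome 6 from 142490249 to 142507957, and Gapdh (ENSMUSG00000057666) on chromosome 6 from 125161715 to 125166467. Pgk1 (ENSMUSG00000062070) lies on chromosome X from 106187100 to 106203699 and Eno1 (ENSMUSG00000063524) on chromosome 4 from 150236721 to 150248879.

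How far the germ-cell isozymes differ from their paralogues bears on how far reads can tell them apart. The coding bases of Pgk2 and Pgk1 were 79.3% identical over 1251 aligned bases, those of Ldhc and Ldha 73.2% over 996, and those of Gapdhs and Gapdh 70.8% over 992. Eno4 and Eno1 were 54.9% identical over 1277 aligned bases. Aldoart1 and Aldoa were closest, at 94.2% over 1092. The first 90 coding bases of 3 pairs are shown because they let the reader compare a near-identical retrogene with more distant isozymes. They come from GENCODE M21 transcripts, capitals mark bases that differ within a pair, and there were 23, 28 and 8 of them in the Pgk, Ldh and Aldo pairs.
Pgk2: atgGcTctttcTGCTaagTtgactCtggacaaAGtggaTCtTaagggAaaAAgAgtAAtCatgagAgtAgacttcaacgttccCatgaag
Pgk1: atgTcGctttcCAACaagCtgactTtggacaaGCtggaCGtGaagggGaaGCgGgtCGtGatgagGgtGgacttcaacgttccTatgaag
Ldhc: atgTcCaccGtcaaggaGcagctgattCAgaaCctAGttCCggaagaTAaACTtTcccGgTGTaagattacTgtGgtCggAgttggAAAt
Ldha: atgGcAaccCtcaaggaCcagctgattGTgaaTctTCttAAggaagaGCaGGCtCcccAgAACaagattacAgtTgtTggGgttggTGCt
Aldoart1: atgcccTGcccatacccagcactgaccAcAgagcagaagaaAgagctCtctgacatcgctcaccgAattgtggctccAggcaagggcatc
Aldoa: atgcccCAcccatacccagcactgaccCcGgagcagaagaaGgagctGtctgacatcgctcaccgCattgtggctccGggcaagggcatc

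The germ-cell isozymes shared fewer short words of sequence with other genes than the paralogues did. Of the 31-base words of the principal transcript, 0% of those of Ldhc and Pgk2 occurred in transcripts of other genes, 4.41% of those of Gapdhs, 5.4% of those of Eno4 and 16.8% of those of Aldoart1. For Ldha the share was 35.1%, for Ldhb 41.4%, for Pgk1 68.3%, for Eno1 77.2% and for Gapdh 84.1%. Among the genes sharing words with the paralogues were Pgk1-rs7, with 68.2% of the words of Pgk1, and Eno1b, with 75.6% of those of Eno1. The kinds of the sharing genes were not tallied. The gene sharing most words was not the paralogue for Gapdhs (Tmem147os, 4.185%) or Eno4 (Hspa12a, 5.4%). How reads that fit several genes were assigned was not given in the sources used here, so the levels of Gapdh, Pgk1, Eno1 and Ldhb are uncertain, and those of Ldha, Aldoa and Aldoart1 less so. The strand of counting is not given either, and Gapdhs overlaps the antisense genes Tmem147os and Gm26935 (mean of 3.43 and 0.366 FPKM), while Gapdh overlaps Iffo1 on the other strand (9.67 FPKM).

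The promoters of 3 germ-cell isozymes and of Ldha, taken from RefSeq for GRCm38.p6, are shown because the 3 isozymes were each highest in control library 1 and lowest in a library labelled knockout, while Ldha varied little. Each window runs from 250 bases before a start site to 50 after it, and where a gene had several, the one nearest the 5′ end in the deposited table was taken, which for Ldha lay 4329 bases away. The windows were chr7:30743632-30743931 (minus strand) for Gapdhs, chr17:40208560-40208859 (minus) for Pgk2, chr7:46861013-46861312 (plus) for Ldhc and chr7:46845554-46845853 (plus) for Ldha. Capitals mark TGACG, a core site bound by CREB and CREM proteins, on either strand as TGACG or CGTCA, and CCAAT, on either strand as CCAAT or ATTGG.
Gapdhs: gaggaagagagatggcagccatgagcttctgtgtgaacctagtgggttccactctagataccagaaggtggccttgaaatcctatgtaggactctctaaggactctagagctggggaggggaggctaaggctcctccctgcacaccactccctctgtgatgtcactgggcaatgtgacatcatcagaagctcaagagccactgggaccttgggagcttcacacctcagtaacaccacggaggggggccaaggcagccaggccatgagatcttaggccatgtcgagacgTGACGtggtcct
Pgk2: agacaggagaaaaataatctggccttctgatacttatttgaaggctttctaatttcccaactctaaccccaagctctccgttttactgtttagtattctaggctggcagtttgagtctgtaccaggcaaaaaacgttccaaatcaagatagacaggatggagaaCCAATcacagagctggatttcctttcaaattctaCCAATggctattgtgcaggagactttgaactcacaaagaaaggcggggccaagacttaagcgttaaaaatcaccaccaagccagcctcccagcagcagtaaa
Ldhc: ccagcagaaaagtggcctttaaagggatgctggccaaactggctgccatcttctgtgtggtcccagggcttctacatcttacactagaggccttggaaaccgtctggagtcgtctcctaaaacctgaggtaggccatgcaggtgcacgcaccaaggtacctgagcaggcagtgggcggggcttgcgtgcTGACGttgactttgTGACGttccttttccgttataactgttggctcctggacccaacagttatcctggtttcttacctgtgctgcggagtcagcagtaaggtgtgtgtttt
Ldha: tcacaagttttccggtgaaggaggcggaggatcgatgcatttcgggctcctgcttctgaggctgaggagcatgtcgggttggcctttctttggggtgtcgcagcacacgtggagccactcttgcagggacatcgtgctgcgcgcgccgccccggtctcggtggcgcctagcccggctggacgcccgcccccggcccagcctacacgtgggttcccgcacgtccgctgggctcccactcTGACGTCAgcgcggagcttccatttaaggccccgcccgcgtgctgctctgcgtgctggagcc

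TGACG stood at -61 and -47 from the start site in Ldhc and at 39 in Gapdhs. In Ldha it stood on both strands at -12 and -9 within the full site TGACGTCA. It was in none of the other 6 windows found, those of Pgk2, Eno4, Gapdh, Pgk1, Ldhb and Eno1, and Aldoart1 had no window in the table used. TGACG was in 20.8% and TGACGTCA in 1.79% of all 32851 promoter windows of that length. CCAAT, found in 37.4% of them, stood at -86 and -52 in Pgk2, at -58 in its paralogue Pgk1, at -53 in Ldhb and at 3 in Eno1, and in none of the other 5 windows found. These matches describe the letters of the windows only.

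The most abundant member was Ldhc, the lactate dehydrogenase of spermatocytes, spermatids and sperm, which ranked 6 among all entries by mean FPKM. The order by mean over the 6 libraries was Ldhc, Gapdhs (rank 31), Pgk2 (72), Ldha (96), Eno1 (711), Ldhb (1274), Aldoart1 (1298), Eno4 (2279), Pgk1 (6478) and Gapdh (23146). The ranges over the 6 libraries overlapped between the neighbours Gapdhs and Pgk2, Pgk2 and Ldha, and Ldhb and Aldoart1. They did not overlap between any other neighbours in that order. The germ-cell form was the higher one at the dehydrogenase, kinase and lactate steps, and the lower one for enolase and, as Aldoart1 against Aldoa, for aldolase. Another aldolase retrogene, Aldoart2, held 49.3% of the summed aldolase FPKM in libraries labelled knockout and 51.5% in controls. Aldoa, with its entries summed, held 37.9% in libraries labelled knockout and 34.2% in controls. The order of Aldoart2 and Aldoa depends on gene model length, 2911 bases for the main Aldoa entry and 1658 for Aldoart2. Their principal transcripts had 1511 and 1658 bases. In libraries labelled knockout, reads were 6775, 5725 and 5509 for the main Aldoa entry and 6855, 4901 and 4859 for Aldoart2. In controls they were 6168, 6399 and 5655 for Aldoa and 6439, 6491 and 5478 for Aldoart2.

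**Figure D1:**
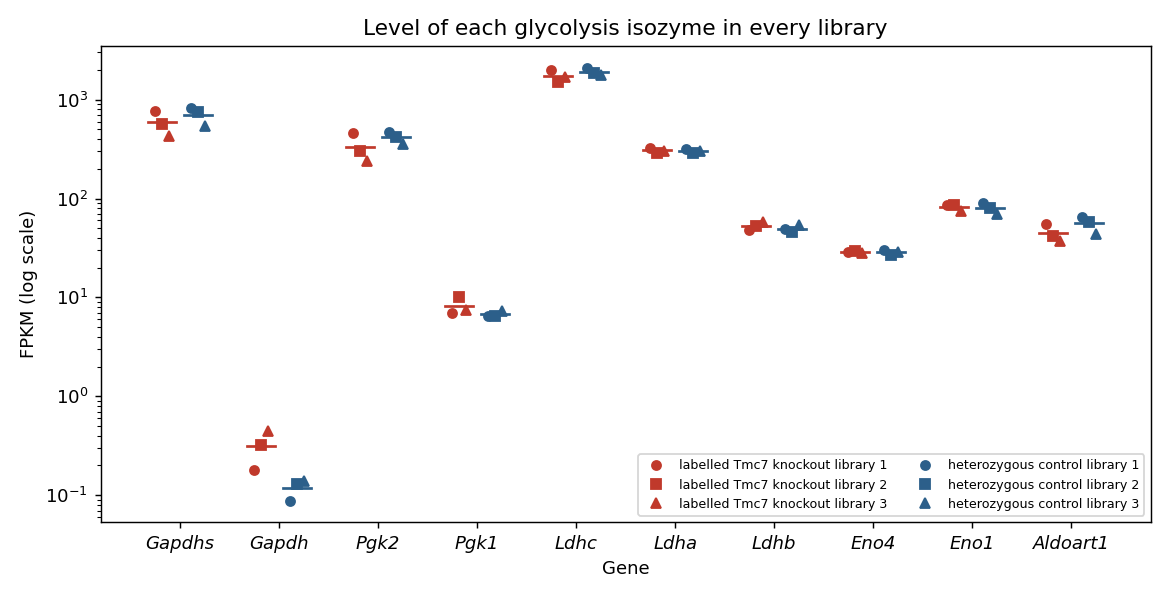
FPKM of the 10 isozymes on a log axis, with 1 symbol per library (circle, square and triangle for library 1, 2 and 3), libraries labelled knockout on the left of each gene in red, controls on the right in blue, and bars at the group means. Ldhc lies between 1522 and 2109 FPKM and Gapdh below 0.5 FPKM in every library, and the groups overlap for every gene except Gapdh.

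At the step of glyceraldehyde-3-phosphate dehydrogenase, the sperm form Gapdhs, bound to the fibrous sheath, was at 762, 574 and 430.3 FPKM in libraries 1 to 3 labelled knockout and at 817, 746 and 547 FPKM in the controls. Libraries 2 and 3 labelled knockout and control library 3 were the low ones, and the groups overlapped. The means were 589 ± 167 FPKM in libraries labelled knockout and 703 ± 139.7 FPKM in controls (SD, n = 3 each). The difference on the log2(FPKM + 1) scale, given throughout as libraries labelled knockout minus controls with its standard error (SE), was -0.27 (SE 0.25, 95% interval -0.86 to 0.31, limma adjusted p = 0.868).

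Gapdh, the general form of that enzyme, was listed at 0.179, 0.321 and 0.447 FPKM in libraries labelled knockout and at 0.0882, 0.131 and 0.139 FPKM in controls. These values rest on 14, 23 and 36 reads in libraries labelled knockout and on 6, 10 and 11 reads in controls, worked back from the FPKM. All 3 libraries labelled knockout were above all 3 controls, which was true of 4.15% of all genes tested. The gene lay below the mean of 0.5 FPKM needed for testing, so 9 of the 10 genes were tested. Without that filter its log2 difference was 0.23 (SE 0.08, limma adjusted p = 0.856), and by limma-voom on the recovered reads it was 1.28 (SE 0.47, adjusted p = 0.858). A further 73 entries shared at least 20% of the words of the Gapdh transcript, and together they held 647, 692 and 847 reads in libraries labelled knockout and 596, 699 and 725 reads in controls. Whether reads of Gapdh were assigned to these entries was not tested.

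Phosphoglycerate kinase came mainly from Pgk2, the autosomal retrogene that serves meiotic and later germ cells. It was at 456, 301 and 242 FPKM in libraries labelled knockout and at 474, 424 and 356 FPKM in controls. Library 1 labelled knockout lay between control libraries 1 and 2, and the other two lay below all controls. The means were 333 ± 111 FPKM in libraries labelled knockout and 418 ± 59.1 FPKM in controls (SD, n = 3 each). Among the members tested, Pgk2 had the log2 difference farthest below 0, at -0.37 (SE 0.24, 95% interval -0.94 to 0.20, limma adjusted p = 0.868).

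Pgk1, the X-linked form, was at 7.02, 10.07 and 7.54 FPKM in libraries labelled knockout and at 6.42, 6.52 and 7.24 FPKM in controls. Library 2 labelled knockout was the high one, and library 1 labelled knockout lay below control library 3. The log2 difference was 0.24 (SE 0.14, 95% interval -0.08 to 0.57, limma adjusted p = 0.868). It was 0.10 without library 2 labelled knockout. At least 237 reads per library lay behind these values.

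Lactate dehydrogenase was measured by 3 members, of which Ldha and Ldhc are neighbours on chromosome 7 with 5575 bases between them. Ldhc was at 1998, 1522 and 1698 FPKM in libraries labelled knockout and at 2109, 1846 and 1783 FPKM in controls. Library 1 labelled knockout was above control libraries 2 and 3, and the other two were below all controls. The log2 difference was -0.14 (SE 0.18, 95% interval -0.57 to 0.29, limma adjusted p = 0.881).

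Ldha, the form that favours lactate production in most tissues, was at 326, 291 and 302 FPKM in libraries labelled knockout and at 319, 289 and 301 FPKM in controls. The groups lay on top of each other. Its log2 difference of 0.01 had an SE of 0.11, with a 95% interval of -0.24 to 0.27 (limma adjusted p = 0.984). Ldhb, the form that prevails in heart, was at 47.6, 52.9 and 58.2 FPKM in libraries labelled knockout and at 49.02, 46.1 and 54.03 FPKM in controls. Its log2 difference was 0.09 (SE 0.11, limma adjusted p = 0.881). Ldhc made up 82.8% ± 1.36 of the summed FPKM of the 3 genes in libraries labelled knockout and 84.4% ± 0.900 in controls (SD, n = 3 each). Ldha made up 14.7% ± 0.926 in libraries labelled knockout and 13.4% ± 0.615 in controls, and Ldhb 2.56% ± 0.476 in libraries labelled knockout and 2.21% ± 0.285 in controls.

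At the enolase step a general form, Eno1, had the highest FPKM. Eno4, an enolase of the sperm tail that mouse sperm need for normal motility, was at 28.7, 29.2 and 27.98 FPKM in libraries labelled knockout and at 30.04, 27.1 and 28.6 FPKM in controls. It varied least of the 10 genes, with a coefficient of variation of 3.47% over the 6 libraries. Its log2 difference of 0.0034 had an SE of 0.08, with a 95% interval of -0.19 to 0.19 (limma adjusted p = 0.994). Eno1, the widely expressed enolase, was at 86.1, 86.5 and 75.2 FPKM in libraries labelled knockout and at 89.3, 79.3 and 69.8 FPKM in controls. The groups overlapped, with a log2 difference of 0.06 (SE 0.12, limma adjusted p = 0.920).

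Aldoart1, a retrogene for an aldolase of mouse sperm, was at 55.7, 42.1 and 37.5 FPKM in libraries labelled knockout and at 65.8, 58.4 and 44.0 FPKM in controls. Libraries 2 and 3 labelled knockout were below all controls, and library 1 labelled knockout was above control library 3. Its log2 difference was -0.31 (SE 0.19, 95% interval -0.76 to 0.15, limma adjusted p = 0.868). The sister retrogene Aldoart2 was at 219, 170.5 and 150.3 FPKM in libraries labelled knockout and at 236, 211 and 172 FPKM in controls (log2 difference -0.20, SE 0.18, limma adjusted p = 0.868). Their source gene Aldoa, in its main entry, was at 123, 113 and 97.1 FPKM in libraries labelled knockout and at 129, 119 and 101 FPKM in controls (log2 difference -0.06, SE 0.13, limma adjusted p = 0.926).

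None of the 9 tested members passed the test in either direction, and 0 of 19168 genes did (limma-trend with Benjamini-Hochberg adjustment at 0.05, 0% called higher and 0% called lower). At an unadjusted p under 0.05 there were 0 of the 9 members, against 1.48% of all tested genes higher and 2.38% lower. By limma-voom 1 gene of 20556 passed, which was not a member, and 1 of 10 members had an unadjusted p under 0.05, namely Gapdh, against 3.8% of all genes in that fit. The means of 4 of the 5 germ-cell isozymes were lower in libraries labelled knockout and that of 1 higher, with a median log2 difference of -0.27. The 4 tested paralogues all had higher means there, with a median of 0.07. Over all genes tested 51.4% had a lower mean and the median was -0.0058. None of the 9 tested members had groups without overlap, against 8.56% of all genes tested.

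**Figure D2:**
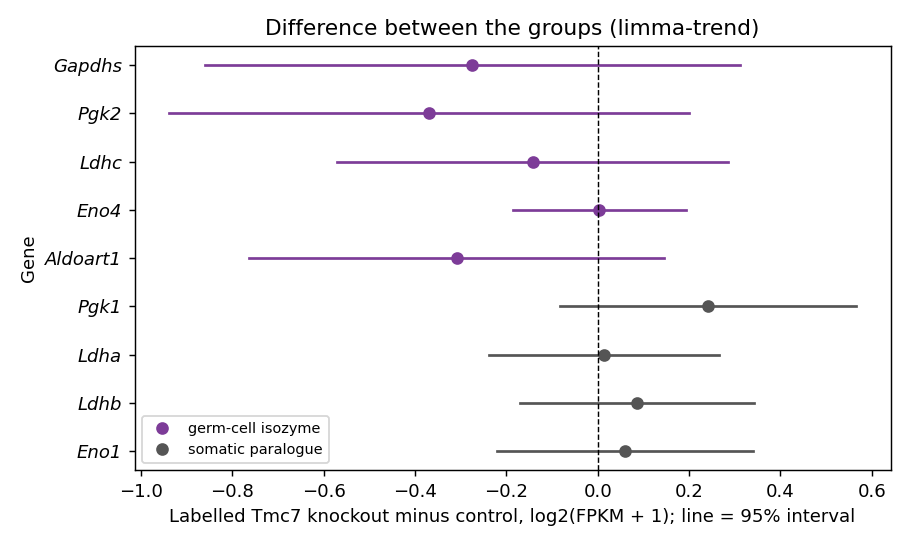
Difference between libraries labelled knockout and controls on the log2(FPKM + 1) scale for the 9 tested isozymes, with 95% intervals from limma-trend, germ-cell isozymes above and paralogues below. Every interval includes 0, and the intervals of Gapdhs and Pgk2 reach below -0.8.

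A ratio of isozymes within a library needs no scaling between libraries, and 6 pairs were compared by exact two-sided permutation tests, whose smallest p with 3 libraries against 3 is 0.1. The ratio of Pgk2 to Pgk1 was 64.95, 29.8 and 32.03 in libraries labelled knockout and 73.8, 64.9 and 49.2 in controls. On the log2 scale it averaged 5.31 ± 0.62 in libraries labelled knockout and 5.95 ± 0.30 in controls (SD, n = 3 each), a difference of -0.64 (exact permutation p = 0.3, adjusted over the 6 pairs 0.36). Libraries 2 and 3 labelled knockout lay below all controls, and library 1 labelled knockout was level with control library 2.

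The ratio of Ldhc to Ldha was 6.13, 5.23 and 5.61 in libraries labelled knockout and 6.60, 6.38 and 5.92 in controls, a log2 difference of -0.16 (exact permutation p = 0.2, adjusted 0.36). Against Ldhb, the Ldhc ratio was 41.98, 28.8 and 29.1 in libraries labelled knockout and 43.03, 40.03 and 33.001 in controls, a log2 difference of -0.23 (exact permutation p = 0.3, adjusted 0.36). Both ratios were lowest in libraries 2 and 3 labelled knockout, and the groups overlapped in both. The ratio of Aldoart1 to Aldoa was 0.453, 0.371 and 0.386 in libraries labelled knockout and 0.511, 0.492 and 0.435 in controls, a log2 difference of -0.25 (exact permutation p = 0.2, adjusted 0.36). That ratio used only the main entry of Aldoa, and its second entry was left out. The ratio of Eno4 to Eno1 was 0.334, 0.337 and 0.372 in libraries labelled knockout and 0.336, 0.342 and 0.409 in controls, a log2 difference of -0.06 (exact permutation p = 0.6). The ratio of Gapdhs to Gapdh was between 963 and 4257 in libraries labelled knockout and between 3952 and 9256 in controls (log2 difference -1.61, exact permutation p = 0.2, adjusted 0.36), and carries the uncertainty of Gapdh. With 1 FPKM added to both genes that difference was -0.50. For all 6 pairs the mean log2 ratio was lower in libraries labelled knockout, and in none did the groups separate. The pairs are not independent, since all come from the same 6 libraries, in which several germ-cell isozymes moved together, and 2 of them share Ldhc. Without library 1 labelled knockout the log2 difference was -0.999 for Pgk2 to Pgk1 and -0.41 for Ldhc to Ldhb. Without library 2 labelled knockout it was -0.14 for Ldhc to Ldhb and -0.10 for Ldhc to Ldha.

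**Figure D3:**
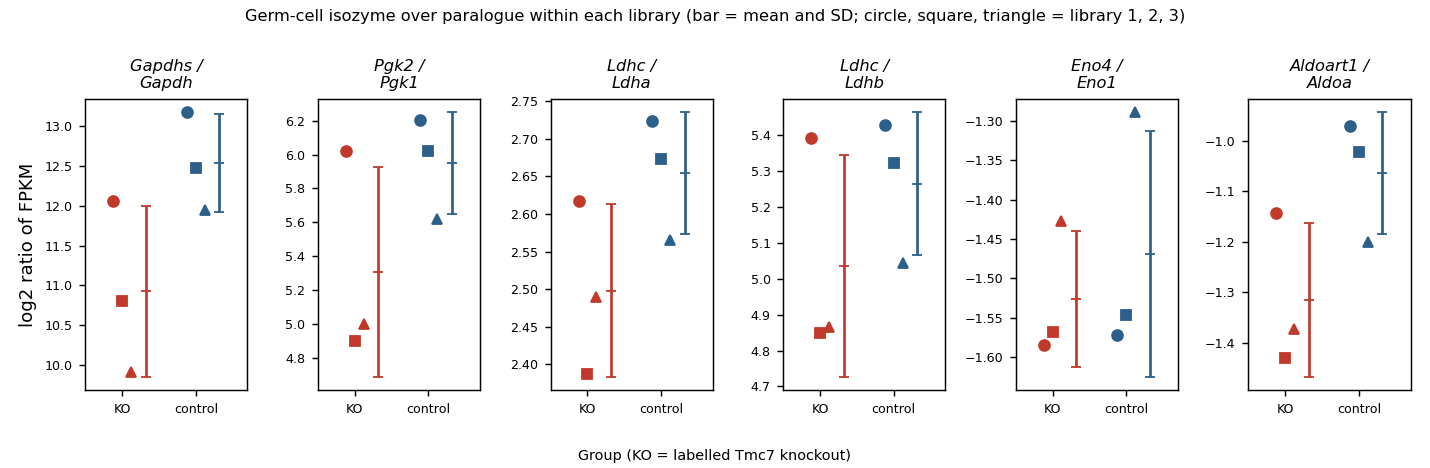
Log2 ratio of each germ-cell isozyme to its paralogue in every library, with libraries labelled knockout on the left of each panel and controls on the right, and mean and SD beside the points. In the Pgk2 panel libraries 2 and 3 labelled knockout sit at 4.90 and 5.002, below the lowest control at 5.62, while library 1 sits at 6.02. The axes differ between panels and do not start at 0.

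The isozymes also differed between libraries of 1 group. The highest level over the 6 libraries was 1.96 times the lowest for Pgk2, 1.90 times for Gapdhs, 1.76 times for Aldoart1 and 1.39 times for Ldhc, but 1.11 times for Eno4. Gapdhs, Pgk2 and Aldoart1 were each highest in control library 1 and lowest in library 3 labelled knockout. Ldhc was also highest in control library 1, and was lowest in library 2 labelled knockout. For Ldha, Ldhb, Eno1 and Pgk1 the highest level was 1.13, 1.26, 1.28 and 1.57 times the lowest, and for Gapdh, at few reads, 5.06 times.

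Markers of late germ cells moved with these isozymes. The summed FPKM of 7 markers of elongating and elongated spermatids was 14423, 8211 and 7467 in libraries labelled knockout and 17198, 13803 and 9849 in controls, and all 7 markers, none at 0 in any library, had lower means in libraries labelled knockout. All 6 round spermatid markers did so too, with summed FPKM of 444 to 615 in libraries labelled knockout and 517 to 633 in controls. Spermatocyte markers (5 of 6 with lower means) summed to 328 to 376 FPKM in libraries labelled knockout and 367 to 411 FPKM in controls. The part of these markers in the isozyme values was not tested.

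Markers of 3 somatic cell types had higher means and those of Leydig cells mostly lower ones. All 7 Sertoli markers, all 4 peritubular myoid markers and all 5 leukocyte markers had higher means in libraries labelled knockout. The Sertoli sum was 379, 483 and 494 FPKM in libraries labelled knockout and 396, 380 and 398 FPKM in controls. The myoid sum was 38.7 to 60.7 FPKM in libraries labelled knockout and 35.1 to 40.8 FPKM in controls, and the leukocyte sum 16.4 to 22.5 FPKM in libraries labelled knockout and 14.6 to 15.5 FPKM in controls. Leydig markers (5 of 6 with lower means) summed to 202 to 361 FPKM in libraries labelled knockout and 305 to 351 FPKM in controls. Spermatogonial markers (2 of 6 with lower means) summed to 20.6 to 29.7 FPKM in libraries labelled knockout and 20.9 to 23.2 FPKM in controls. Red blood cell markers (3 of 5 with lower means; Hba-a2 and Hbb-bt at 0 in some library) summed to 7.26 to 55.5 FPKM in libraries labelled knockout and 7.03 to 46.0 FPKM in controls, and epididymal markers, each at 0 in some library, to at most 0.297 FPKM. Skeletal muscle and fat markers (4 of 5 with lower means) summed to 3.55 to 5.85 FPKM in libraries labelled knockout and 5.75 to 6.04 FPKM in controls. None of the Sertoli, myoid, leukocyte or Leydig markers was at 0 in any library, and the part of these cells in the levels of Pgk1, Ldhb or Gapdh was not tested.

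**Figure D4:**
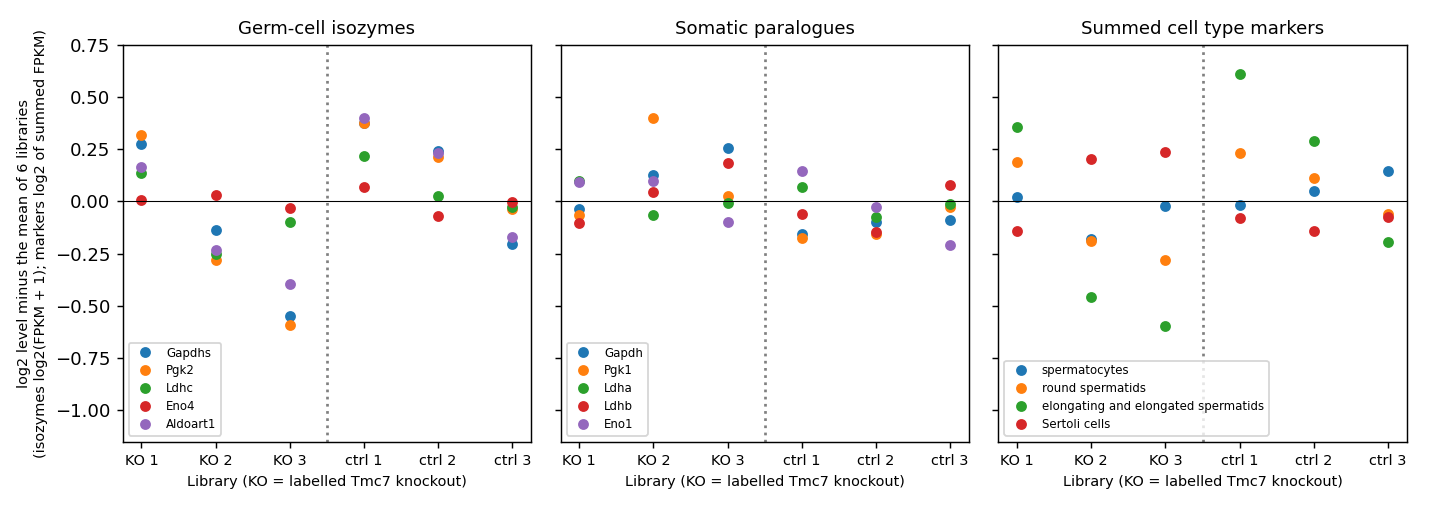
Log2 level of each isozyme, and of 4 summed marker lists, minus its mean over the 6 libraries, with libraries labelled knockout left of the dotted line and controls right of it. Gapdhs, Pgk2, Aldoart1 and the elongating spermatid markers are high in library 1 labelled knockout and in control libraries 1 and 2, and lower in libraries 2 and 3 labelled knockout and in control library 3, while Eno4 stays between -0.07 and 0.07.

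The size of the differences of the germ-cell isozymes depended on single libraries. Without library 1 labelled knockout the log2 difference of Pgk2 was -0.62 (SE 0.17, limma adjusted p = 0.176), that of Gapdhs -0.48 (adjusted p = 0.326), that of Aldoart1 -0.47 (adjusted p = 0.249) and that of Ldhc -0.25 (adjusted p = 0.519). Without library 3 labelled knockout they were -0.16 for Pgk2, -0.07 for Gapdhs, -0.19 for Aldoart1 and -0.13 for Ldhc. No member passed in either setting. Genes in general moved too. Without library 1 labelled knockout 18.2% of all genes tested had an unadjusted p under 0.05, against 3.87% with all 6 libraries. Without library 3 labelled knockout the share was 3.09%. Library 1 labelled knockout correlated at 0.981 to 0.986 with the controls, and at 0.972 and 0.971 with libraries 2 and 3 labelled knockout.

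The genes whose profile over the 6 libraries was most like that of a germ-cell isozyme were sought among the 5370 genes averaging 10 FPKM or more, by the root-mean-square difference of centred log2(FPKM + 1) values. For Gapdhs they were 1700029H14Rik (0.024), Nt5c1b, a cytosolic nucleotidase (0.034), and 4933411K16Rik (0.036). For Pgk2 they were Mbd3l1, a methyl-binding domain-like protein (0.023), Zbbx (0.024) and Crisp2, a cysteine-rich secretory protein of testis (0.034). For Ldhc they were Lancl1 (0.027), Spcs1, a subunit of the signal peptidase (0.027), and Mycbp (0.029). Crisp2 was at 584, 361 and 305 FPKM in libraries labelled knockout and at 598, 543 and 459 FPKM in controls. With 6 libraries and many genes, such likeness is a description of these libraries only.

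Of the other genes of glucose use, 66 were listed in 3 groups and 65 matched the table. At least 1 entry of 55 of them was tested, 56 entries in all, and 0 passed in either direction. Of the 26 tested entries of glycolysis steps, 15 had higher and 11 lower means in libraries labelled knockout, with a median log2 difference of 0.03. The most abundant were Pgam2, a phosphoglycerate mutase of muscle and testis, Hk1, a hexokinase, and Aldoart2. Pgam2 was at 669 ± 68.9 FPKM in libraries labelled knockout and 672 ± 80.2 FPKM in controls, and Hk1 at 199 ± 53.9 FPKM in libraries labelled knockout and 212 ± 35.2 FPKM in controls (SD, n = 3 each).

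Genes of sugar and lactate transport had 12 tested members, of which 8 had higher and 4 lower means in libraries labelled knockout (median log2 difference 0.04). Bsg, the partner of lactate transporters, was at 266 ± 16.5 FPKM in libraries labelled knockout and 249.8 ± 18.4 FPKM in controls. The glucose transporter Slc2a3 was at 238 ± 7.88 FPKM in libraries labelled knockout and 244 ± 19.9 FPKM in controls, and the fructose transporter Slc2a5 at 237 ± 14.05 FPKM in libraries labelled knockout and 234 ± 7.15 FPKM in controls. Genes for the entry of pyruvate, glycerol and sorbitol had 18 tested members, 6 with higher and 12 with lower means (median -0.04). Sord, the sorbitol dehydrogenase, was at 719 ± 157 FPKM in libraries labelled knockout and 802 ± 100.2 FPKM in controls. The testis glycerol kinase-like genes Gk2 and Gykl1 were at 328 ± 31.5 and 219 ± 19.7 FPKM in libraries labelled knockout, and at 351 ± 32.6 and 241 ± 22.8 FPKM in controls.

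The groups did not overlap for 5 of the 56 tested entries, a share near the 8.56% of all genes tested. They were lower in libraries labelled knockout for Pfkfb3, which makes an activator of glycolysis (6.29 ± 1.02 FPKM, against 7.48 ± 0.208 FPKM in controls), and for the lactate transporter Slc16a1 (9.54 ± 0.383 FPKM, against 10.3 ± 0.205 FPKM in controls). They were higher there for Eno3, the muscle enolase (21.6 ± 0.811 FPKM, against 20.4 ± 0.479 FPKM in controls), for Pfkfb1 (0.586 ± 0.0345 FPKM, against 0.473 ± 0.0310 FPKM in controls) and for a second, upstream Aldoa entry. That entry (chromosome 7, 126800790 to 126809108) was at 23.2, 28.7 and 24.7 FPKM in libraries labelled knockout and at 22.3, 20.2 and 18.4 FPKM in controls, a log2 difference of 0.31 (SE 0.11, limma adjusted p = 0.868).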

How the data were processed

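FPKM values of 6 testis libraries were deposited by the authors as 1 table, the libraries made with a SMARTER mRNA-Seq kit from Trizol RNA per the labels' protocols. GRCm38 and mm10 are the builds in the submitters' processing notes. No aligner, counter or annotation was given in the sources used here. Of the entries, 54409 were in GENCODE M21, 98.26% of them (and 10 of 10 members) at identical coordinates. Dividing FPKM by the worth of 1 read at each gene's length gave whole reads for 100% of values (tolerance 0.001 reads). The library totals implied by the FPKM differed from the summed reads. They were 1.89e+07 against 19343479 reads in library 1 labelled knockout, and 1.95e+07 against 18140921 reads in library 3 labelled knockout. How these totals were set was not given.

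Groups came from sample titles. No label says that the libraries are of separate animals, and p-values then measure the spread between these samples, which may be technical. Genes averaging 0.5 FPKM or more entered limma-trend (limma 3.58.1, R 4.3.3) on log2(FPKM + 1) with group as the single term, Benjamini-Hochberg adjusted over all tested genes at 0.05. This scale understates changes of low genes. The procedure was tested on simulated data with planted changes larger than the differences of the tested members. Its power for differences of their size was not tested. Members and lists were chosen with earlier results of these data known. Named were the members, their copies Aldoa, Eno1b and Aldoart2, the 3 highest genes of each list, list genes that passed or whose groups did not overlap, and the 3 nearest profiles of 3 isozymes. Alternatives covered pseudocounts, filters, normalizations, tests, a replicate block and each library left out.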

Additional observations from a re-analysis of the deposited data

How the results depend on the processing

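The count of members called was 0 under every alternative run, as was that of pathway genes. The count over all genes was 0 except by limma-voom on recovered reads, where it was 1 (Srp54b). Leaving out 1 library at a time, the log2 difference ranged from -0.032 to 0.051 for Ldha, from -0.032 to 0.039 for Eno4, from -0.029 to 0.15 for Eno1 and from -0.16 to 0.031 for Aldoa, so that their direction turned. It kept its direction for Pgk2 (-0.62 to -0.16), Gapdhs (-0.48 to -0.07), Aldoart1 (-0.47 to -0.19), Ldhc (-0.25 to -0.05), Pgk1 (0.10 to 0.33) and Ldhb (0.02 to 0.16). The log2 ratio of Eno4 to Eno1 ranged from -0.11 to 0.033, and those of the other 5 pairs stayed below 0, from -2.18 to -1.10 for Gapdhs to Gapdh, -0.999 to -0.44 for Pgk2 to Pgk1, -0.22 to -0.10 for Ldhc to Ldha, -0.41 to -0.14 for Ldhc to Ldhb and -0.34 to -0.19 for Aldoart1 to Aldoa. A pseudocount of 1 moved Gapdhs to Gapdh to -0.50. With quantile normalization Aldoa was at 0.0057 and Ldhc at 0. Quantile normalization gives each rank the same value in every library, and Ldhc ranked 6 among all entries by mean FPKM. That 0 thus reflects ranks only and does not bear on the size of the Ldhc difference. Median-of-ratios normalization left the differences almost unchanged (Ldhc -0.14, Gapdhs -0.27), so it was hardly a separate setting. With the replicate number as a block, 0 members and 0 genes passed, 3 members (Gapdhs, Pgk2 and Aldoart1) had an unadjusted p under 0.05, against 7.36% of all genes in that fit, and Pgk2 kept -0.37 (limma adjusted p = 0.662). For the ratios, flipping the signs of same-numbered differences gave an exact p of 0.25 for every pair, the smallest that 3 pairs allow. Deviations of same-numbered libraries correlated at 0.286, 0.0413 and 0.198. Libraries 1 and 3 labelled knockout correlated best with the same-numbered control, and library 2 labelled knockout with control library 3 (0.17). The labels give no pairing beyond the number, so whether these libraries are paired is not known. Few reads limit Gapdh and, less so, Pgk1.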

Other observations

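Eno1b, a retrotransposed copy of Eno1 on chromosome 18, was at 8.40, 7.65 and 6.66 FPKM in libraries labelled knockout and at 2.21, 1.81 and 7.14 FPKM in controls. Control library 3 lay with the libraries labelled knockout, and control libraries 1 and 2 lay apart. The log2 difference was 1.03 (SE 0.38, limma adjusted p = 0.868), and 88.7% of the 31-base words of its principal transcript occur in other genes. Its reads numbered 279, 233 and 228 in libraries labelled knockout and 64, 59 and 241 in controls, while Eno1 had 8761, 8073 and 7888 reads in libraries labelled knockout and 7901, 7900 and 7212 reads in controls.

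The pyruvate dehydrogenase subunit genes Pdha2, an autosomal retrogene of testis, and Pdha1, its X-linked source, form a pair like Pgk2 and Pgk1. Both were named after their values were seen. Pdha2 was at 79.6 ± 3.73 FPKM in libraries labelled knockout and 75.1 ± 3.88 FPKM in controls, and Pdha1 at 1.54 ± 0.377 FPKM in libraries labelled knockout and 1.51 ± 0.169 FPKM in controls (SD, n = 3 each). Their log2 differences were 0.08 and 0.01 (limma adjusted p = 0.869 and 0.989).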
